A study of Mus musculus with 6 samples.

Results

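ROR and Maf factors are 2 unrelated families of transcription factors that are both tied to helper T cells, and the 5 genes Rora, Maf, Mafk, Mafg and Maff were followed here across Naive, Th17 and Th1 cells of the mouse. The members were found by gene symbol, in a set drawn up with results of these data known, and are 5 of the 24223 genes counted in each library. All 5 passed the filter on low counts, which left 13607 genes to be tested. The RNA-Seq data comprise 6 libraries, 2 for each cell type. Naive cells were non-activated CD4+CD44- T cells isolated from the pooled lymph nodes and spleens of C57BL/6 mice aged 1 to 2 months. Th17 and Th1 cells were made from such cells in culture, with antibodies to CD3 and CD28 in both, and were collected on day 5. The Th17 medium held antibodies to IL-4 and IFN-γ with TGF-β, IL-6, IL-1β and IL-23, and the Th1 medium held an antibody to IL-4 with IL-12 and IL-2. Each comparison with Naive therefore spans activation, culture and cytokines together, and these cannot be told apart. The study calls the replicates independent biological ones, whereas the labels give only a replicate number.

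RORα, the product of Rora, is a nuclear receptor that binds a short AT-rich stretch followed by a single receptor motif, and it acts in the circadian clock, in lipid metabolism and in Th17 cells. Maf encodes c-Maf, a large Maf protein with an activation domain that promotes cytokine genes such as Il4, Il10 and Il21 in T cells. MafK, MafG and MafF are small Maf proteins, which have the basic leucine zipper but no activation domain. They bind DNA as pairs, either with each other, which is generally repressive, or with CNC family partners such as NRF2 and BACH1, and so take part in the antioxidant response.

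Maff was the one gene of the 5 called as changed, and Mafk the most abundant small Maf gene per length. The 250 bases before their annotated start sites are shown for that reason, from RefSeq on GRCm38.p6 and read 5′ to 3′. Capitals mark the one motif match described beneath.
Mafk (chr5:139791286-139791535, + strand): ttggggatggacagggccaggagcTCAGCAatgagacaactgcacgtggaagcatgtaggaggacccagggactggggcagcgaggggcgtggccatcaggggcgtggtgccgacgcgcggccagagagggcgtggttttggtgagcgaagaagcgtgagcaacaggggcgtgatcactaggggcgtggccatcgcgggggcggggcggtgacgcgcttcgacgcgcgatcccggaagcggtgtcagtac
Maff, upstream start (chr15:79346371-79346620, + strand): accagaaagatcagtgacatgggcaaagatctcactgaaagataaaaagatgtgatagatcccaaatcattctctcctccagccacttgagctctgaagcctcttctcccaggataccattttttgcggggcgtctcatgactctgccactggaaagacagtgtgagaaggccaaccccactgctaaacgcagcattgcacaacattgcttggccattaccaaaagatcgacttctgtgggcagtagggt
Maff, middle start (chr15:79347270-79347519, + strand): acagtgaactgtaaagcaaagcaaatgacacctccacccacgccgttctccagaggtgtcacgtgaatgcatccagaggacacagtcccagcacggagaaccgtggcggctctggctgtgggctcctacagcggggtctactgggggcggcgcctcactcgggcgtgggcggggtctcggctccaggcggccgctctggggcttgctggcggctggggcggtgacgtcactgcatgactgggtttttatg
Maff, downstream start (chr15:79348152-79348401, + strand): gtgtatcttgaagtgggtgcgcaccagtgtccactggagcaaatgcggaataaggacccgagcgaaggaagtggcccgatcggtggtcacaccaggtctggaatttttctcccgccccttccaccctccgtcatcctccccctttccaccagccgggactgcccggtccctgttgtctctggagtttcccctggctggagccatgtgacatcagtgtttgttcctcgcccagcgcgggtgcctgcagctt

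Maff has 3 annotated starts, and counts per gene do not tell which of them was used. The GC content was 48% before the upstream start, 64% before the middle start and 60.4% before the downstream start, and it was 67.2% before that of Mafk. The table held 6 such windows for 4 of the 5 genes, Rora, Mafk, Mafg and Maff. Each window was searched on both strands for the ROR response element as TAGGTCA or TGGGTCA, for the first 6 letters of the Maf recognition element, TGCTGA, and for the CNC and small Maf element TGANTCAGC, which can overlap TGCTGA only in part. The single match was TGCTGA in the Mafk window, on the opposite strand and 226 bases before the start, where it reads TCAGCA on the strand shown. Of 32851 mouse windows of this length, 16.1% held TGCTGA, 2.23% held TAGGTCA, 3.24% held TGGGTCA and 1.02% held TGANTCAGC.

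The libraries held 17742158 to 69080017 counts, and in each cell type replicate 1 was 3.38 to 3.77 times as deep as replicate 2. The 7 T cell markers were above 10 CPM (counts scaled to a common library total) in every library, with a summed level of 2740 to 4110 CPM. Both Th17 libraries also held marker RNA of other cells, with 2880 and 2780 CPM summed over 8 neutrophil genes and 237 and 808 CPM over 8 macrophage genes. These 8 macrophage genes summed to 10.2 to 36.8 CPM in the other 4 libraries, and the neutrophil genes to 27.4 to 310 CPM. The 6 mast cell and basophil genes summed to 207 and 423 CPM in Th17 and to 12 to 55.9 CPM elsewhere, and the 6 megakaryocyte and platelet genes to 265 and 461 CPM in Th17 and to 6.78 to 75.8 CPM elsewhere. In bulk RNA, a change in the number of cells of a type and a change in RNA per cell cannot be told apart.

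Levels are given as CPM normalised by the trimmed mean of M-values (TMM). A gene was called where edgeR's quasi-likelihood test gave a Benjamini-Hochberg adjusted p-value under 0.01 over all 13607 genes, with an absolute log2 fold change above 1. By this rule, none of the 5 genes was called between Th17 and Naive, while 4.01% of all tested genes were called as higher and 1.43% as lower in Th17. Between Th1 and Naive 1 of the 5, Maff, was called as higher and none as lower, beside 4.64% and 2.81% of all genes. Between Th1 and Th17 none was called, beside 2.7% of all genes higher and 2.83% lower in Th1. At an unadjusted p under 0.05, the edgeR test gave 5 of the 5 genes in Th17 over Naive, 1 in Th1 over Naive and 0 in Th1 over Th17, where 33.3%, 29.9% and 33.8% of all genes had such a value. DESeq2 called 1, 1 and 0 of them, and of all genes it called 7.69% as higher and 4.92% as lower in Th17 over Naive, 8.16% and 5.93% in Th1 over Naive, and 6.8% and 6.41% in Th1 over Th17.

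**Figure D1:**
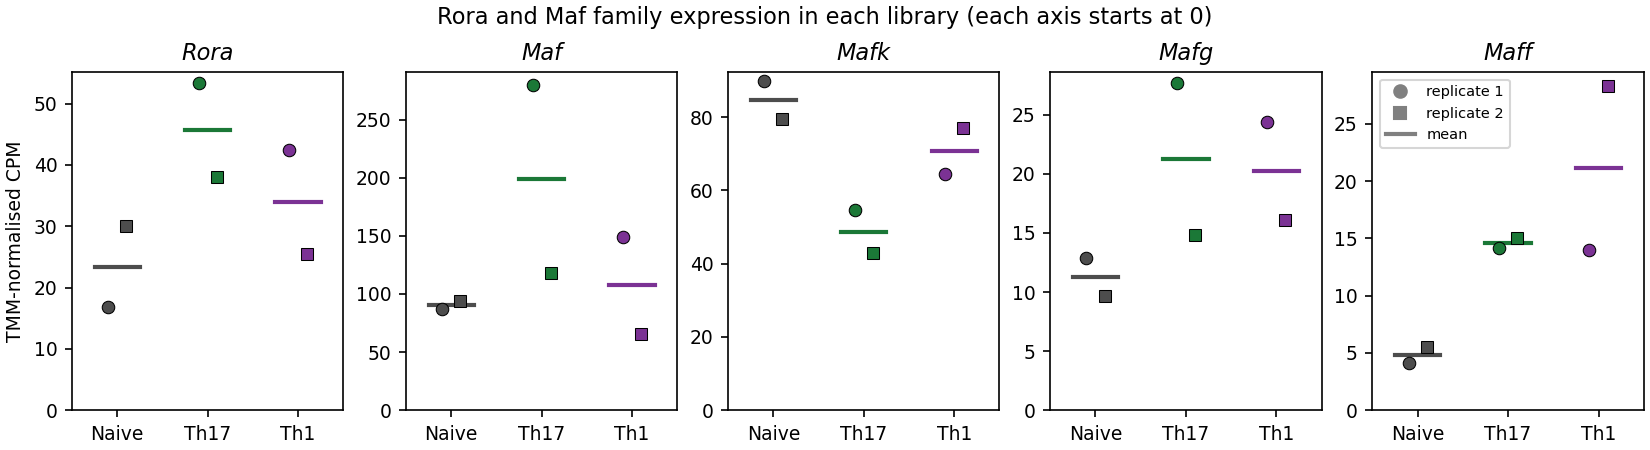
TMM-normalised CPM (y axis, from 0 in each panel) of Rora, Maf, Mafk, Mafg and Maff in the Naive, Th17 and Th1 libraries (x axis), with a circle for replicate 1, a square for replicate 2 and a bar at the mean of 2. Mafk is lowest in both Th17 libraries and Maff lowest in both Naive libraries, whereas the Th17 and Th1 replicates of Maf lie far apart, at 280 and 118 CPM and at 149 and 65.6 CPM.

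Rora, the ROR gene followed here, lies on the + strand of chromosome 9 (GRCm38, 68653786 to 69388246) and has 6 annotated transcripts. Its level was 16.8 and 30 CPM in Naive, 53.3 and 38 CPM in the Th17 libraries, and 42.4 and 25.4 CPM in Th1. Both Th17 libraries lay above both Naive libraries, while Th1 overlapped with each of the others. The Naive mean was 23.4 ± 9.33 CPM, that of Th17 45.7 ± 10.8 CPM and that of Th1 33.9 ± 12 CPM (SD, n = 2). The log2 fold change of Th17 over Naive was 0.97 (SE 0.38), which missed the threshold (edgeR adjusted p = 0.11, unadjusted p = 0.029). That of Th1 over Naive was 0.54 (SE 0.38, edgeR adjusted p = 0.39) and that of Th1 over Th17 was -0.43 (SE 0.38, edgeR adjusted p = 0.44). The order Th17, Th1, Naive of the means thus had no neighbours that differed beyond their spread. The 2 Naive replicates alone differed 1.78-fold, and the value of Th17 over Naive was 0.61 without Naive replicate 1 and 1.43 without Naive replicate 2.

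Maf, the gene of c-Maf, lies on the - strand of chromosome 8 (GRCm38, 115682942 to 115707794) and is the large Maf gene of the set. It stood at 87.3 and 94 CPM in Naive, 280 and 118 CPM in the Th17 libraries, and 149 and 65.6 CPM in Th1. The Naive libraries were close to each other, both Th17 libraries were above them, and the Th1 libraries fell on either side of them. In Th17 replicate 1 exceeded replicate 2 2.38-fold, a gap larger than that of all but 5.05% of the tested genes, and in Th1 2.27-fold, larger than all but 12.5%. The difference of Th17 over Naive was 1.68 on the log2 scale within replicate 1 and 0.33 within replicate 2, whereas that of Th1 over Naive changed sign, from 0.77 to -0.52. Against Th17, Th1 was lower by a like amount within both numbers, -0.91 and -0.84, although the 2 groups overlapped. None of these differences passed the test, with edgeR adjusted p = 0.11 for Th17 over Naive, 0.77 for Th1 over Naive and 0.20 for Th1 over Th17. Without Th17 replicate 1, the value of Th17 over Naive was 0.39 in place of 1.14.

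Macrophage RNA was also present in Th17, and its part in the level of Maf was not tested. The sum of its genes was 237 CPM in Th17 replicate 1 and 808 CPM in replicate 2, against 280 and 118 CPM for Maf. Most of that sum was Lyz2, which neutrophils also express, at 223 and 762 CPM. In Th17, Csf1r stood at 5.34 and 11.7 CPM, Cd68 at 5.51 and 11.8, Mrc1 at 1.48 and 9.79, and C1qb at 0.857 and 6.22. In Naive, Csf1r had 7.41 and 4.8 CPM, which overlapped with Th17, and Cd68 had 3.3 and 3.81 CPM. Neither gene was called between Th17 and Naive. Marco had 0.551 and 4.58 CPM in Th17, C1qa 0.352 and 1.7, and Mertk 0.138 and 0.226. No macrophage gene of the list was at 0 in either Th17 library, and 2 to 4 of the 8 were at 0 in each of the other libraries.

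**Figure D2:**
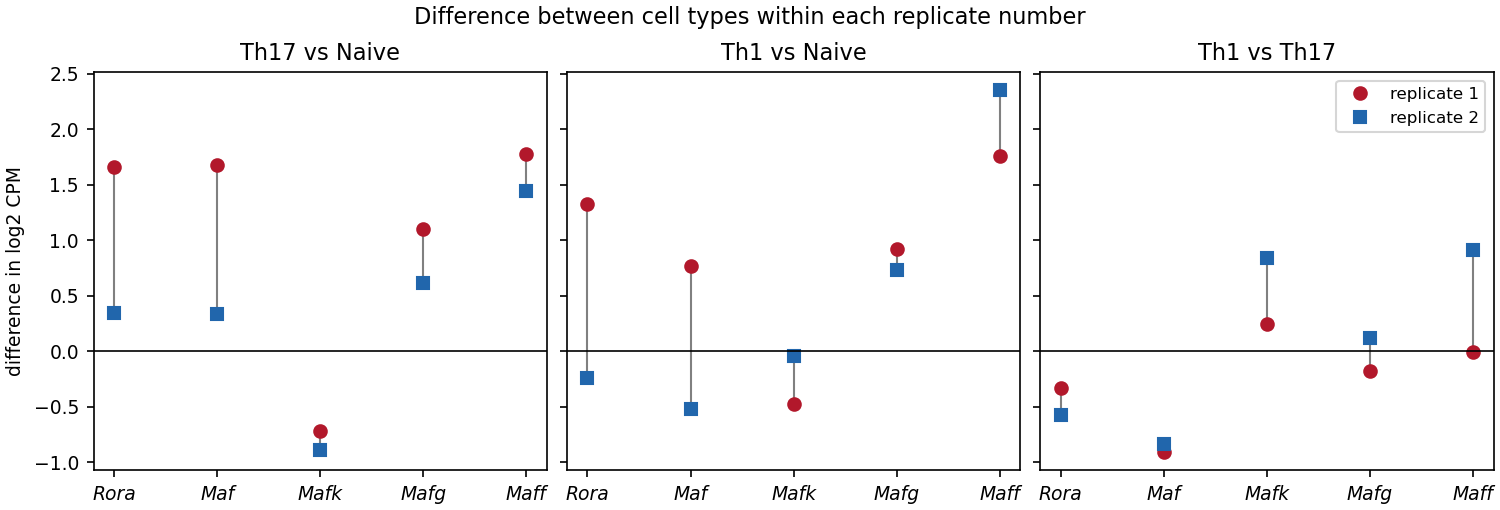
Difference in log2 CPM (y axis) between cell types for each gene (x axis), taken within replicate 1 (red circle) and within replicate 2 (blue square), in one panel for each comparison. In Th17 over Naive the values lie closest together in Mafk, at -0.72 and -0.89, while Rora and Maf change sign in Th1 over Naive.

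Mafk, a small Maf gene whose protein is the small subunit of the erythroid factor NF-E2, lies on the + strand of chromosome 5 (GRCm38, 139791513 to 139802653). It was measured at 89.9 and 79.4 CPM in Naive, 54.6 and 42.9 CPM in the Th17 libraries, and 64.4 and 77.1 CPM in Th1. None of the 3 cell types overlapped, with Naive highest and Th17 lowest. The means were 84.7 ± 7.4, 48.8 ± 8.25 and 70.8 ± 8.98 CPM (SD, n = 2). The log2 fold change of Th17 over Naive was -0.79 (SE 0.26) and stayed outside the call, with edgeR adjusted p = 0.065 and a size under the required 1. Th1 over Naive gave -0.26 (SE 0.26, edgeR adjusted p = 0.56) and Th1 over Th17 gave 0.54 (SE 0.26, edgeR adjusted p = 0.18). Neighbours in this order therefore did not differ beyond the spread that the test allows. Mafk shares 169 bp of exon with Tmem184a on the opposite strand, but that gene had 0 to 20 counts per library beside 759 to 6125 for Mafk.

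Mafg, whose protein is a common partner of NRF2, lies on the - strand of chromosome 11 (GRCm38, 120625117 to 120633600). Its level was 12.9 and 9.66 CPM in Naive, 27.7 and 14.8 CPM in the Th17 libraries, and 24.4 and 16.1 CPM in Th1. All 4 cultured libraries were above both Naive libraries, and Th17 and Th1 overlapped. The means were 11.3 ± 2.28, 21.2 ± 9.12 and 20.2 ± 5.91 CPM (SD, n = 2). The log2 fold changes over Naive were 0.91 in Th17 (SE 0.39, edgeR adjusted p = 0.13) and 0.84 in Th1 (SE 0.39, edgeR adjusted p = 0.18), and neither passed. The value in Th17 was 0.39 without Th17 replicate 1 and 1.29 without Th17 replicate 2. Th1 and Th17 differed by -0.07 (SE 0.39, edgeR adjusted p = 0.92). The 3′ neighbour Sirt7 shares 124 bp of exon with Mafg on the same strand and had 6.8 to 25.6 times its counts, and reads within the shared bases cannot be told apart.

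Maff, a small Maf gene known to be induced by stress and inflammatory signals, lies on the + strand of chromosome 15 (GRCm38, 79346621 to 79359076). It rose in Th1, by a log2 fold change of 2.14 over Naive (SE 0.41, 4.41-fold, edgeR adjusted p = 0.0065). The level was 4.1 and 5.5 CPM in Naive, 14.2 and 15 CPM in the Th17 libraries, and 14 and 28.3 CPM in Th1. Both cultured cell types were above Naive in every library, Th17 and Th1 overlapped, and Th1 replicate 2 stood apart at 2.01 times replicate 1. The means were 4.8 ± 0.991, 14.6 ± 0.593 and 21.1 ± 10.1 CPM (SD, n = 2). In Th17 the log2 fold change over Naive was 1.61 (SE 0.40) with edgeR adjusted p = 0.026, which missed the threshold of 0.01. Whether Th1 and Th17 differ was tested directly, with a log2 fold change of 0.53 (SE 0.39, edgeR adjusted p = 0.36), so the call in Th1 and its absence in Th17 do not amount to a difference between them.

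The call in Th1 was close to its threshold. Leaving out Th1 replicate 2 gave a log2 fold change of 1.56 (edgeR adjusted p = 0.031), and leaving out Naive replicate 1 gave 1.93 (edgeR adjusted p = 0.041). Without Naive replicate 2 or Th17 replicate 1 the values were 2.36 and 2.14, with edgeR adjusted p = 0.013 and 0.015. DESeq2 called Maff in Th17 as well, at 1.62 with adjusted p = 0.0023. Neutrophil genes summed to 2880 and 2780 CPM in Th17 and to 27.4 and 39.4 CPM in Th1, and their part in the level of Maff was not tested.

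**Figure D3:**
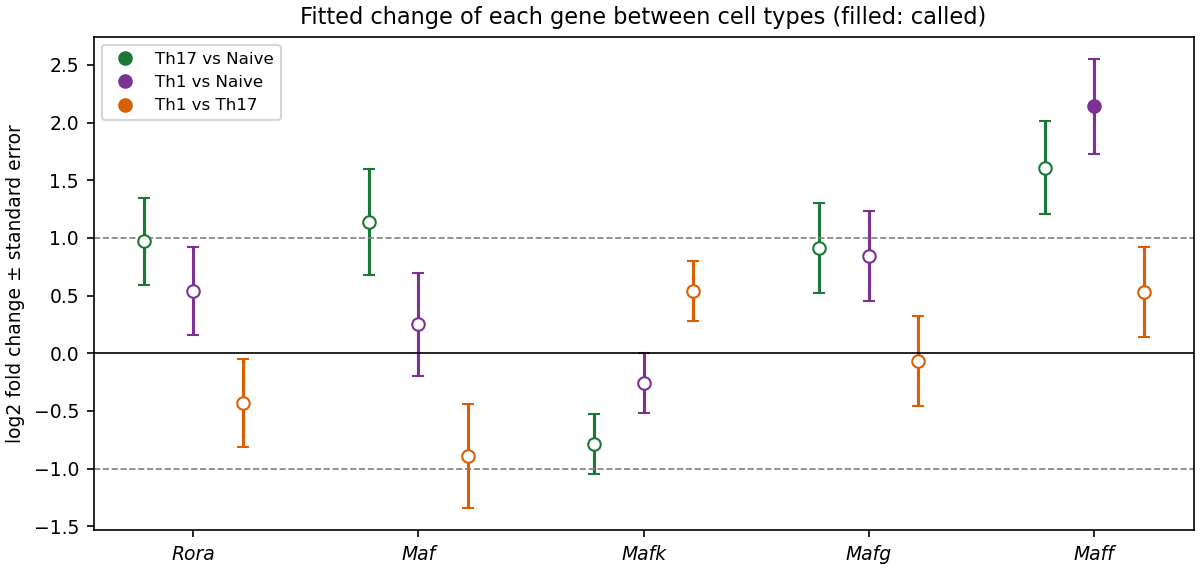
Fitted log2 fold change with its standard error (y axis) of the 5 genes (x axis) in the 3 comparisons, where a filled point is a call and dashed lines mark a change of 1 in either direction. One point is filled, that of Maff in Th1 over Naive at 2.14, and Mafk is alone in lying below 0 in both comparisons with Naive, at -0.79 and -0.26.

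The small Maf genes can be compared with each other only per length of transcript. Divided by the union of annotated exons (GENCODE vM21, 3901 bp for Mafk, 5613 bp for Mafg and 2594 bp for Maff), Mafk led in every library. Its level was 23 and 20.4 CPM per kb in Naive, 14 and 11 in the Th17 libraries, and 16.5 and 19.8 in Th1. Maff stood at 1.58 and 2.12 CPM per kb in Naive, 5.47 and 5.78 in the Th17 libraries, and 5.4 and 10.9 in Th1. Mafg ranged from 1.72 CPM per kb in Naive replicate 2 to 4.93 in Th17 replicate 1.

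As a share of the summed level per kb, Mafk made up 85.6% and 84.1% in Naive, 57.3% and 56.6% in the Th17 libraries, and 62.9% and 58.9% in Th1. Each of the 4 cultured libraries was thus below both Naive libraries. The share of Maff was 5.87% and 8.76% in Naive, 22.4% and 29.8% in the Th17 libraries, and 20.6% and 32.5% in Th1, so it was higher in every cultured library than in Naive. Mafg had 7.11% to 20.2%, and its share in Th1 replicate 2, 8.55%, lay next to the 8.54% of Naive replicate 1. The sum of the 3 genes overlapped between the cell types, at 26.9 and 24.2 CPM per kb in Naive, 24.4 and 19.4 in the Th17 libraries, and 26.3 and 33.5 in Th1. With 2 libraries against 2, an exact permutation test cannot give a p-value below 0.333, so these shares are given without one. Without division by length, Mafk still had 84% and 84.1% of the sum in Naive and 56.6% to 63.5% in the cultured cells.

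**Figure D4:**
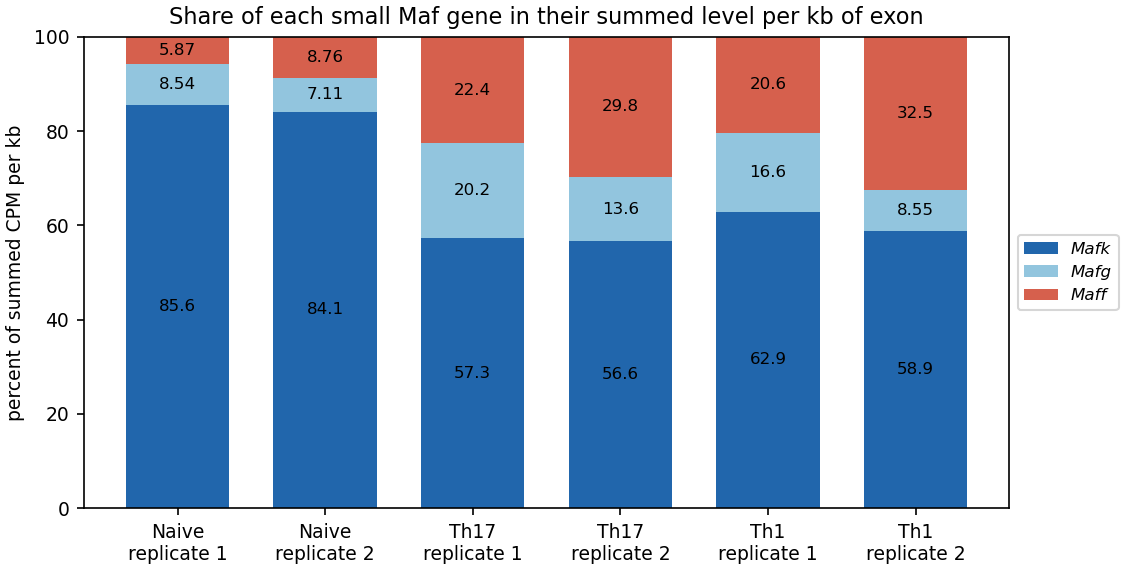
Stacked bars of the share (y axis, percent of the summed CPM per kb of exon) of Mafk, Mafg and Maff in each of the 6 libraries (x axis), with the value printed in each segment. The Mafk segment is 84.1% or more in both Naive libraries and 56.6% to 62.9% in the cultured ones, and the Maff segment is larger in each cultured library than in either Naive library.

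Across families, levels per kb put Maf and Mafk above the other 3 genes in every group mean. In Naive, Mafk had 21.7 ± 1.9 and Maf 11 ± 0.575 CPM per kb (SD, n = 2), whereas in Th17 Maf had 24.1 ± 13.9 and Mafk 12.5 ± 2.12. The order of these 2 genes was therefore reversed in the means, and in both libraries of Th17, where Maf had 34 and 14.3 CPM per kb and Mafk 14 and 11. In replicate 2 of Th17 the gap was small. In Th1, Maf was above Mafk in replicate 1 (18.1 and 16.5 CPM per kb) and below it in replicate 2 (7.96 and 19.8). Rora was low per length, at 1.29 to 4.08 CPM per kb over the 6 libraries, spread over 13071 bp of annotated exon.

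Rorb, Nrl and Mafa were at or near the limit of detection. Rorb, a ROR gene of brain and retina, had 1 count in 1 library and 0 in the other 5. Nrl, a Maf factor of rod photoreceptors, had 2 counts in each of 2 libraries and 0 elsewhere, and neither gene was tested. Mafa, which acts in pancreatic beta cells, reached at most 0.569 CPM and was not called.

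The list for partners of small Maf proteins held 7 genes, counting Keap1, whose protein acts on NRF2 and is not itself a partner. Of these, 6 were tested, and 1 was called, as lower in Th1 than in Naive and in Th17. Of all tested genes, 2.81% and 2.83% were called as lower there. Nfe2, the p45 subunit that pairs with MafK in erythroid cells and platelets, had 49.5 and 11.1 CPM in Naive, 17.8 and 20.9 in the Th17 libraries, and 2.4 and 1.52 in Th1. Both Th1 libraries were far below the rest, and the 2 Naive libraries bracketed Th17. It fell in Th1, by a log2 fold change of -3.92 compared with Naive (SE 0.64, edgeR adjusted p = 0.0032) and of -3.26 compared with Th17 (SE 0.63, edgeR adjusted p = 0.0085). The first call was lost without either Th1 library (-4.27 and -3.66, edgeR adjusted p up to 0.016), and the second without any of its 4 libraries (-3.67 to -2.99, edgeR adjusted p up to 0.044).

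Erythroid RNA moved with Nfe2 between the Naive libraries. The 8 erythroid markers summed to 297 and 46 CPM in the first and second Naive libraries, and Klf1, a defining factor of red cell precursors, to 97.5 and 16.2 CPM. The list summed to 13.9 and 15.6 CPM in Th17 and to 56.4 and 91.7 CPM in Th1, where Gata1, a factor of red cell precursors, mast cells and megakaryocytes, made up 54.8 and 90.7 CPM. Gata1 had 94.6 and 21.1 CPM in Naive. Klf1 was at 1.03 CPM or less in all cultured libraries, and the globin genes Hba-a1 and Hbb-bs of the list had no counts in any library. Megakaryocyte and platelet genes moved with Nfe2 between the cultures, at 265 and 461 CPM in Th17 and 75.8 and 36.2 CPM in Th1, while Naive had 23.6 and 6.78 CPM. The part of any of these cells in the level of Nfe2 was not tested. Mafk itself differed 1.13-fold between the same 2 Naive libraries.

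The other tested genes of this list were not called in any comparison. Nfe2l2, the gene of NRF2, had log2 fold changes of -0.51 in Th17 (SE 0.25) and -0.60 in Th1 (SE 0.25) over Naive, with edgeR adjusted p = 0.18 and 0.14. Keap1, which holds NRF2 in check, and Bach2, a repressor that pairs with small Maf proteins, were 0.94 (SE 0.28) and 1.20 (SE 0.35) in Th1 over Th17, with edgeR adjusted p = 0.049 and 0.046, short of 0.01. None of the 6 tested genes of the list was above 0 in Th17 over Naive. Their median log2 fold change there, with Keap1 at -0.7 among them, was -0.67, beside -0.02 over all tested genes. In Th1 it was -0.12 over Naive and 0.24 over Th17.

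Antioxidant genes, many of which hold elements bound by NRF2 and small Maf pairs, were mostly not called. All 16 were tested, and 4 rose in Th17 over Naive, 1 in Th1 over Naive, and 1 was lower in Th1 than in Th17. Of all tested genes, 4.01%, 4.64% and 2.83% were called in these directions. The median log2 fold changes of the 16 were 0.52, 0.42 and -0.40 in these 3 comparisons, beside -0.02, -0.02 and -0.03 over all genes. Over Naive, 11 of the 16 were above 0 in Th17 and 11 in Th1. Below 0 in Th17 were Nqo1 (-0.4), Gclm (-0.57), Gclc (-0.17), Taldo1 (-0.26) and Osgin1 (-1.52), none of them called. Osgin1 had SE 0.45 and edgeR adjusted p = 0.046. Gclm was also lower in Th1 than in Naive, by -1.51 (SE 0.36, edgeR adjusted p = 0.019), and was not called. Hmox1, which breaks down haem, had 1.14 and 2.18 CPM in Naive, 8.55 and 18.3 in the Th17 libraries, and 6.41 and 9.04 in Th1. It was above Naive in all 4 cultured libraries and rose in Th17 by 3.04 on the log2 scale (SE 0.53, edgeR adjusted p = 0.0052), a call lost without Naive replicate 1 or Th17 replicate 2 (2.61 and 2.39, edgeR adjusted p up to 0.038).

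Srxn1, which repairs oxidised peroxiredoxins, had 2.48 and 1.09 CPM in Naive, 20.7 and 21.3 in the Th17 libraries, and 7.32 and 3.92 in Th1. The 3 cell types did not overlap, and it rose in Th17 over Naive by 3.51 (SE 0.50, edgeR adjusted p = 0.0019), or 3.55 without Th17 replicate 1 (edgeR adjusted p = 0.011). Slc7a11, the cystine carrier, had 0.205 and 0.149 CPM in Naive, 3.55 and 20.5 in the Th17 libraries, and 0.356 and 0.0632 in Th1. It rose in Th17 over Naive by 5.98 (SE 0.97, edgeR adjusted p = 0.0036) and was lower in Th1 than in Th17 by -5.53 (SE 0.94, edgeR adjusted p = 0.0048). The first of these calls was lost without either Naive library or Th17 replicate 2 (4.25 to 6.29, edgeR adjusted p up to 0.023), and the second without Th17 replicate 2 or either Th1 library (-7.5 to -3.84, edgeR adjusted p up to 0.039). In Th17, Slc7a11 and Hmox1 were higher in replicate 2, as were the sums of the macrophage genes (237 and 808 CPM), the mast cell and basophil genes (207 and 423 CPM) and the megakaryocyte and platelet genes (265 and 461 CPM). The part of these cells in the antioxidant genes was not tested.

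Me1, which supplies NADPH, had 0 counts in both Naive libraries, 1.45 and 1.36 CPM in Th17, and 1.62 and 2.02 CPM in Th1. Against a floor of 3 counts in each Naive library it was at least 14.6-fold higher in Th17 and at least 18.9-fold higher in Th1, and both differences were called (edgeR adjusted p = 0.0016 and 0.0011). That in Th17 was lost without Naive replicate 1 or Th17 replicate 1 (edgeR adjusted p = 0.011 to 0.014). Setting Me1 to these bounds leaves the medians of the list as given, since it lies above them either way.

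Circadian genes made up a list of 14, all tested, and which of them hold ROR response elements was not examined. Between Th17 and Naive 2 rose, between Th1 and Naive 3 rose, 2 were higher in Th1 than in Th17, and none was called as lower. Of all tested genes, 4.01%, 4.64% and 2.7% were called as higher in these comparisons, and 1.43%, 2.81% and 2.83% as lower. The medians of the list were 0.25, -0.25 and 0.30. The 3 genes behind these calls were Bhlhe40, Nfil3 and Npas2. The clock genes Arntl and Clock were not called, with log2 fold changes of 0.19 (SE 0.30) and 0.55 (SE 0.30) in Th17 over Naive (edgeR adjusted p = 0.68 and 0.23). The largest falls of the list there were those of Per2, at -2.73 (SE 0.57, edgeR adjusted p = 0.013), and Per1, at -1.33 (SE 0.29, edgeR adjusted p = 0.016). Both missed the threshold of 0.01, and 9 of the 14 genes were above 0. Per2 was also lower in Th1 than in Naive, by -2.20 (SE 0.56, edgeR adjusted p = 0.024).

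Bhlhe40, a repressor of clock genes that also controls cytokine production in activated T cells, had 8.76 and 8.42 CPM in Naive, 116 and 114 in the Th17 libraries, and 377 and 508 in Th1. The 3 cell types were well apart. The log2 fold changes were 3.74 for Th17 over Naive (SE 0.30, edgeR adjusted p = 7.7e-05), 5.68 for Th1 over Naive (SE 0.32, edgeR adjusted p = 1.6e-05) and 1.94 for Th1 over Th17 (SE 0.27, edgeR adjusted p = 0.0019). The last was lost without either Th17 library or Th1 replicate 2 (1.72 to 1.95, edgeR adjusted p up to 0.022). Nfil3, a repressor that competes with the clock factor DBP, had 4.62 and 4.26 CPM in Naive, 37.4 and 24.5 in the Th17 libraries, and 45.6 and 42 in Th1. It rose over Naive by 2.80 in Th17 (SE 0.33, edgeR adjusted p = 6.8e-04) and by 3.30 in Th1 (SE 0.33, edgeR adjusted p = 2.7e-04).

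Npas2, a relative of Clock, had 0.778 and 1.04 CPM in Naive, 2.11 and 1.07 in the Th17 libraries, and 10.3 and 21.1 in Th1. Both Th1 libraries were high and the other 4 low, which gave calls for Th1 over Naive (4.12, SE 0.56, edgeR adjusted p = 0.0013) and for Th1 over Th17 (3.25, SE 0.53, edgeR adjusted p = 0.004). The second was lost without either Th17 library or Th1 replicate 2 (2.66 to 3.85, edgeR adjusted p up to 0.035). Rora, by comparison, had its highest mean in Th17 and no call.

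The list of helper T cell genes linked with c-Maf held 9 genes, all tested. Of these, 6 rose and 1 fell in Th17 over Naive, and 3 rose and 2 fell in Th1 over Naive. In Th1 over Th17, 1 was higher and 6 were lower. The higher one was Il10, by 3.06 (SE 0.52, edgeR adjusted p = 0.0045). The lower ones were Il22 (-10.68), Il2 (-5.38), Ccr6 (-4.8), Il23r (-4.65), Il4 (-2.71) and Il21 (-1.64). Of these, Il22, Il2 and Ccr6 were at or near 0 in Th1. The calls of Il10, Il4, Il21 and Il23r were each lost when certain single libraries were left out. The shares of all tested genes called as higher and lower were 4.01% and 1.43%, 4.64% and 2.81%, and 2.7% and 2.83%. The medians of the list were 3.20, 0.53 and -2.71. The list does not separate genes that c-Maf promotes from genes linked with it in other ways, so these medians have no single meaning for Maf. The cytokines made by these cells are also set by the polarising media, and the list was drawn up with results of these libraries known, so its direction is not independent evidence on Maf. The sum of the 8 neutrophil markers was also high in the Th17 libraries, at 2880 and 2780 CPM, although Mpo was lower there than in Naive. The part of neutrophil RNA in this list was not tested.

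Il22, a cytokine that acts on epithelia, had 0.323 and 0.149 CPM in Naive, 636 and 646 in the Th17 libraries, and 0.557 and 0 in Th1. It was high in both Th17 libraries and at or near 0 in the other 4, with a log2 fold change over Naive of 11.21 (SE 0.75, edgeR adjusted p = 4.7e-05). Il21, which supports follicular helper and Th17 cells, had 1.75 and 1.73 CPM in Naive, 35.5 and 48.7 in the Th17 libraries, and 13.4 and 13.6 in Th1, and rose over Naive by 4.59 (SE 0.36, edgeR adjusted p = 6.9e-05) and 2.95 (SE 0.33, edgeR adjusted p = 4.6e-04). Il10, an anti-inflammatory cytokine, had its highest level in Th1, at 26.2 and 16.1 CPM beside 3.55 and 1.41 in Th17 and 0.235 and 0.347 in Naive. It rose in Th1 over Naive by 6.25 (SE 0.63, edgeR adjusted p = 2.6e-04) and in Th17 over Naive by 3.20 (SE 0.58, edgeR adjusted p = 0.0064), the latter lost without either Naive library or Th17 replicate 1 (2.35 to 3.42, edgeR adjusted p up to 0.049).

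Cxcr5, the receptor that leads cells to B cell follicles, had 19.2 and 25.8 CPM in Naive, 4.7 and 4.19 in the Th17 libraries, and 1.11 and 1.64 in Th1. It fell over Naive, with -2.34 in Th17 (SE 0.38, edgeR adjusted p = 0.0037) and -4.06 in Th1 (SE 0.42, edgeR adjusted p = 3e-04). Icos, a costimulatory receptor, had 56 and 70.6 CPM in Naive, 262 and 214 in the Th17 libraries, and 451 and 330 in Th1. It rose by 1.91 (SE 0.30, edgeR adjusted p = 0.0028) and 2.63 (SE 0.30, edgeR adjusted p = 5.1e-04). In Th17, the call of Cxcr5 was lost without Naive replicate 2 or either Th17 library (-2.42 to -2.12, edgeR adjusted p up to 0.04), and that of Icos without Naive replicate 1 or Th17 replicate 1 (1.75 and 1.76, edgeR adjusted p up to 0.021).

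Between replicates, the 3 cytokines differed in how they stood to Maf. Within Th17, where Maf was 2.38-fold higher in replicate 1, Il22 had near-equal levels of 636 and 646 CPM, and Il21, with 35.5 and 48.7 CPM, was lower in replicate 1. Il10 was higher in replicate 1 in both cultures, with 3.55 and 1.41 CPM for Th17 and 26.2 and 16.1 CPM for Th1, as was Maf. With 2 libraries per cell type, these are descriptions only.

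**Figure D5:**
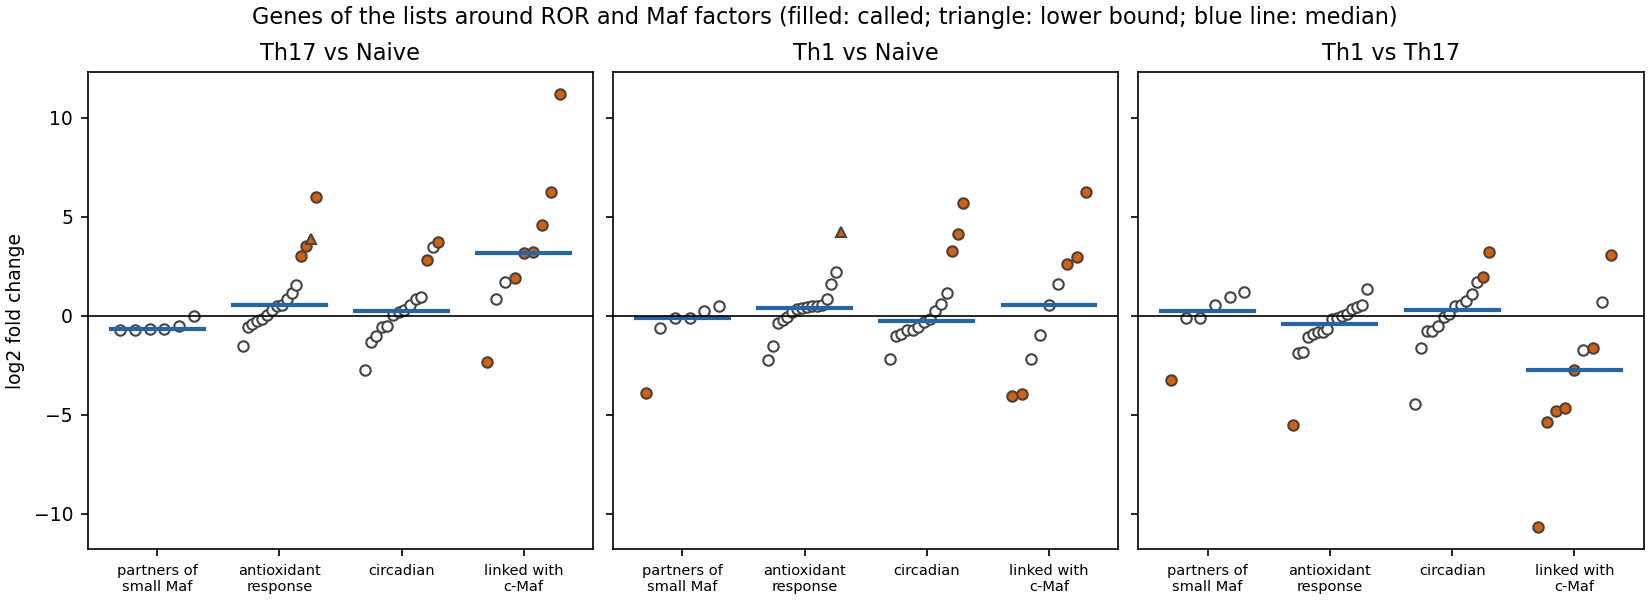
Log2 fold change (y axis) of each tested gene of the 4 lists (x axis) in the 3 comparisons, with filled symbols for called genes, a blue line at the list's median, and triangles for Me1 at its lower bound. Calls are scattered over the antioxidant and circadian lists, whose medians lie between -0.40 and 0.52, while the genes linked with c-Maf have a median of 3.20 in Th17 over Naive and -2.71 in Th1 over Th17.

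To place each gene among the transcriptome, the log2 CPM of 8840 genes with a mean of at least 10 CPM was compared with it over the 6 libraries by Pearson's r. With 6 points that share 3 cell types and a split in depth, the highest r of so many genes is large for any gene, and the values only describe likeness. Mafk had the closest counterparts, E130309D02Rik (r = 0.999), Gne (r = 0.997) and Zkscan5 (r = 0.996). E130309D02Rik had 76.8 and 67.9 CPM in Naive, 42.6 and 32.4 in the Th17 libraries, and 52.6 and 63.7 in Th1, which is the order of libraries seen for Mafk.

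Maff was most like Abhd17b (r = 0.995), Unc119b (r = 0.994) and Neurl3 (r = 0.994). Abhd17b had 24.6 and 29.3 CPM in Naive, 55.4 and 64 in the Th17 libraries, and 64.2 and 101 in Th1, again with Th1 replicate 2 highest. Mafg was most like Cyb5d1 (r = 0.979), Gsr (r = 0.96) and Cltb (r = 0.957), and Gsr, the glutathione reductase gene, is also in the antioxidant list. Gsr had 55.3 and 42.2 CPM in Naive, 97.9 and 75.1 in the Th17 libraries, and 103 and 71.8 in Th1.

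Rora was most like Slc37a3 (r = 0.969), Neat1 (r = 0.968) and Ankzf1 (r = 0.954). Neat1, a nuclear non-coding RNA, had 81.3 and 131 CPM in Naive, 470 and 288 in the Th17 libraries, and 276 and 136 in Th1, with the same ranks within each cell type as Rora. Maf was most like Ptprs (r = 0.962), Marcksl1 (r = 0.937) and Kctd12 (r = 0.927). Ptprs, a receptor phosphatase, had 46.7 and 49.2 CPM in Naive, 94.3 and 61.7 in the Th17 libraries, and 56.3 and 43 in Th1. Among the 5 genes themselves, r was highest between Rora and Maf (0.82) and lowest between Rora and Mafk (-0.76) over the 6 libraries.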

How the data were processed

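Per the labels, polyadenylated RNA of 6 samples was copied by Smart-seq2, made into TruSeq libraries and sequenced on an Illumina instrument. The authors mapped reads to mm10 with HISAT2 2.2.1 and deposited raw counts per gene from HTSeq 0.13.5, one table per library. Their methods name default counting and removal of duplicates, while their code sets reverse strand and shows no such step, so neither is certain here, and the kit as named does not mark strand. Overlapping genes on opposite strands, such as Maf with Gm15655 (440 bp) and Rora with Gm15511 (82 bp), may share reads.

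The test was edgeR 4.0.16 in R 4.3.3 (filterByExpr, TMM factors 0.862 to 1.09, cell type as sole term, all 6 libraries in 1 fit). DESeq2 1.42.0 served as an alternative. SE is the log2 fold change divided by the root of F. Log2 CPM used a prior count of 2. The test was also run on simulated counts, drawn independently for each library. The outcome of that run is not given here, and it cannot show how deviations shared between libraries act on the test. Other alternatives were library size, RLE, no filter or at least 10 counts per library, a replicate block, thinning, 4 libraries, adjusted p under 0.05 and leaving out each library.

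Named were all 5 genes, related genes, in each list the called genes (at most 5, by smallest adjusted p), genes given by value alone, and the 3 most like each gene. The 5 genes and all lists were chosen with earlier results of these data known. Same-numbered libraries were checked for shared deviations, with r of -0.23, 0.17 and 0.08, and were not paired in the main test. Some items are not reported here.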

Additional observations from a re-analysis of the deposited data

How the results depend on the processing

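The 15 log2 fold changes of the 5 genes were recomputed under 17 alternatives each, and 237 of 255 values kept their direction and their side of the threshold. For Maff in Th17 over Naive, the value passed the threshold with DESeq2 (1.62), without the filter (1.60), at an adjusted p under 0.05 (1.61), and with the replicate block in edgeR (1.63) and DESeq2 (1.65), and it ranged from 1.41 to 1.82 as libraries were left out, passing without Th1 replicate 1. Maf in the same comparison passed only without the filter (1.13). The 5 genes therefore gave 1 call there in each of those cases and 2 without the filter, and 0 to 1 as libraries were left out. For Maff in Th1 over Naive, the call was lost with library size alone (1.87), with 4 libraries (2.14) and without Naive replicate 1, Naive replicate 2, Th17 replicate 1 or Th1 replicate 2 (1.56 to 2.61 over all 6), leaving 0 calls. Adjusted p-values of this result ranged from 3.2e-06 to 0.041. Signs turned in 3 results that were not called, namely Maf in Th1 over Naive (-0.42 to 0.73 as libraries were left out, -0.42 without Th1 replicate 1), Mafg in Th1 over Th17 (-0.44 to 0.45, turning to 0.45 without Th17 replicate 1 and 0.21 without Th1 replicate 2) and Maff in Th1 over Th17 (-0.04 to 0.95, -0.04 without Th1 replicate 2). The cause was not tested. Library size alone shifted the median of all genes by -0.24 in Th1 over Naive and -0.21 in Th1 over Th17.

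The check made showed no strong shared deviation of same-numbered libraries. It cannot exclude an effect of the replicate number, which also goes with depth. The block with DESeq2 or edgeR changed no call of the 5 genes but that of Maff in Th17. In edgeR the block raised the genes called in Th17 over Naive from 545 to 706 as higher and from 194 to 329 as lower. Crossing the Naive numbers, an alternative added after seeing the data, gave 306 and 70 genes higher and lower in Th17 over Naive, beside 545 and 194, and left 0 of the 5 genes called, Maff in Th1 over Naive (2.09) being lost. Over all genes, calls as higher and lower were 1047 and 670 with DESeq2 in Th17 over Naive, 1110 and 807 in Th1 over Naive, and 925 and 872 in Th1 over Th17 beside 367 and 385, and without the filter 1203 and 951, 1287 and 972, and 1188 and 1044. With at least 10 counts in every library they were 250 and 93 in Th17 over Naive. Of 34 calls among the genes of the lists, 15 held under every alternative run, and none changed sign. Depth limits Me1 and Slc7a11, which had few counts in Naive, and 2 libraries per cell type limit all tests.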
